A study of Mus musculus with 9 samples.

Results

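The resting miRNA cargo of airway extracellular vesicles (EVs) was described in mice that breathed filtered air (FA). All columns of FA pools in the table were taken, 3 of the 9 pools in the series, and the 6 ozone pools entered no comparison. The mice were female C57BL/6J, 8 to 10 weeks old, and were exposed whole body for 3 h before bronchoalveolar lavage fluid (BALF) was collected the next day. EVs were captured from the cell-free fluid on a membrane-affinity column, lavage of 4 mice made each pool, and small RNA libraries were sequenced. Each value therefore averages over 4 animals, and the 3 pools are separate sets of mice. A column that binds vesicles does not identify the cells that released them, and no cell fraction of the same lavage was analysed here.

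A miRNA gene is transcribed as a precursor that folds into a hairpin, and enzymes cut from it a short duplex with a 5p and a 3p strand. An Argonaute protein keeps either strand and uses the bases that follow its first base, the seed, to find target mRNAs. miRNAs with the same seed form a family that can share targets. A strand whose 5′ end is cut at a shifted position, a kind of isomiR, carries another seed. EVs in the airway lumen carry miRNAs between cells such as epithelial cells and macrophages.

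The table held 1308 entries, 427 canonical miRNAs and 881 isomiRs, in RPMMM, the read counts of a pool scaled so that its miRNA reads sum to 1000000. An isomiR entry gives the shift of its 5′ end in bases. Variants of the 3′ end are not listed apart, so isomiR below means a 5′ shift only. Entries were summed over isomiRs and over genomic copies into 439 mature miRNAs from 299 hairpins, and levels below are these sums unless stated otherwise. RPMMM is a share of each pool's miRNA reads, so a level says nothing about the amount of miRNA per vesicle or per animal. How well each miRNA was ligated and amplified also enters its level and was not tested.

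The sequences below are members of the families that held most of the cargo, with the seed in capitals (bases 2 to 8 from the 5′ end). They are RefSeq mature sequences (GRCm38.p6). RefSeq had a sequence for 376 of the 439 mature miRNAs, and none for miR-30d-5p, the highest of the miR-30 family. The seed GAGGUAG is that of the let-7 family:
let-7f-5p: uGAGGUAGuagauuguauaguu
let-7c-5p: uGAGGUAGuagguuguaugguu
let-7a-5p: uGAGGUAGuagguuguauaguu
let-7g-5p: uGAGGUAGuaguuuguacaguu
let-7b-5p: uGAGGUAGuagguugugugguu
let-7d-5p: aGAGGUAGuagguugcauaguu
let-7e-5p: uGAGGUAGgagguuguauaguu
Other abundant seeds shown are those of miR-21, miR-26, miR-30 and the miR-200 group, which has 2 seeds:
miR-21-5p: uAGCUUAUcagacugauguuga
miR-26a-5p: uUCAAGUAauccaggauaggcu
miR-26b-5p: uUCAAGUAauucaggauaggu
miR-30a-5p: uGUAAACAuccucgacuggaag
miR-30c-5p: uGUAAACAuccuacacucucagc
miR-200b-3p: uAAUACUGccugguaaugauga
miR-200c-3p: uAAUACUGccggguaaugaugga
miR-200a-3p: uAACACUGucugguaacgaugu
Members of a family differ outside the seed. Counted from the 5′ end of let-7a-5p, let-7c-5p carries A19G alone, let-7f-5p G12A alone and let-7e-5p U9G alone, while let-7b-5p carries A17G and A19G. A single base thus separates the reads of several of the most abundant entries, and the split between these members depends on how mismatches were handled in the alignment. The seed of miR-200b-3p differs from that of miR-200a-3p at C4U, which puts them in different seed families.

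miR-21-5p was the most abundant miRNA in every pool, at 113829, 101402 and 106134 RPMMM in FA 1, FA 2 and FA 3, or 10.7% ± 0.627 (SD, n = 3) of the total. This miRNA is widely expressed and well known for its rise in inflamed and remodelling tissue. miR-26a-5p was at 79705, 77328 and 75604 RPMMM, second in every pool. let-7f-5p was at 65076, 59588 and 58393 RPMMM, the third in every pool. Below these ranks the order of neighbours was not fixed: miR-30d-5p was at 54400, 46332 and 39628 RPMMM and let-7c-5p at 43906, 49085 and 44767, so that their ranges overlapped.

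Ranks 6 to 10 were let-7a-5p (36686, 38264 and 32272 RPMMM), miR-30a-5p (36977, 33722 and 33077), miR-378-3p (25545, 33065 and 39087), miR-200b-3p (29146, 31319 and 34332) and let-7g-5p (26249, 31589 and 29578). The group holds miRNAs found in most cell types together with miR-200b-3p, an epithelial miRNA that restrains the ZEB repressors of E-cadherin. miR-378-3p varied most among the 20 highest, with a coefficient of variation (CV) of 20.8%, lowest in FA 1 and highest in FA 3.

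Ranks 11 to 20 were let-7b-5p, miR-30c-5p, miR-23a-3p, miR-29a-3p, miR-125a-5p, miR-26b-5p, let-7d-5p, miR-320-3p, miR-200c-3p and miR-652-3p, with means from 26644 down to 13449 RPMMM. miR-23a-3p was the steadiest of the 20, at 20423, 20190 and 20956 RPMMM, a CV of 1.91%. Of the 19 neighbouring pairs among the 20, 15 had overlapping ranges and 6 kept the same order in every pool. The top 10 of the pools shared 9 miRNAs of 11 that reached any top 10, and the top 20 shared 18 of 22.

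**Figure D1:**
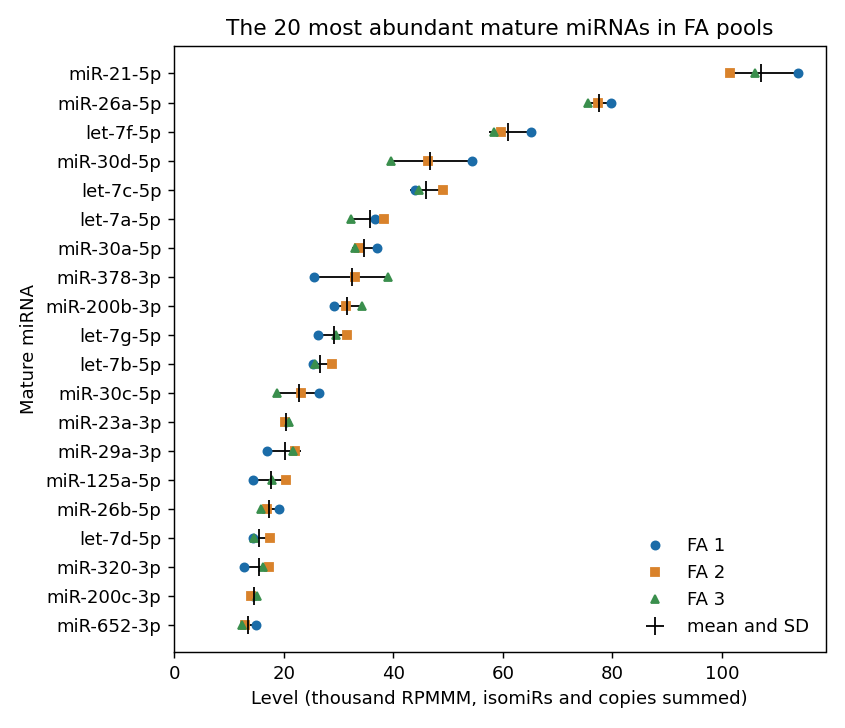
Levels of the 20 most abundant mature miRNAs (vertical axis) in units of 1000 RPMMM (horizontal axis), 1 symbol for each FA pool, with the mean as a vertical tick and the SD as a horizontal bar (n = 3). miR-21-5p, miR-26a-5p and let-7f-5p are separated from each other in all pools, while most neighbours from rank 4 down overlap.

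The cargo was concentrated in few miRNAs. The 5 highest of each pool held 33.8% ± 1.67 of the RPMMM, the 10 highest 50.2% ± 0.983, the 20 highest 68.7% ± 1.21, the 50 highest 87.7% ± 0.830 and the 100 highest 96.4% ± 0.274 (SD, n = 3). It took 10, 10 and 11 miRNAs to hold 50% of a pool, 55, 56 and 60 to hold 90%, and 164, 161 and 172 to hold 99%. At the other end, 251 of the 439 mature miRNAs were above 0 in all 3 pools, 56 in 2, 84 in 1 and 48 in none. Means were above 10000 RPMMM for 24 miRNAs, above 1000 for 85 and above 50 for 247.

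**Figure D2:**
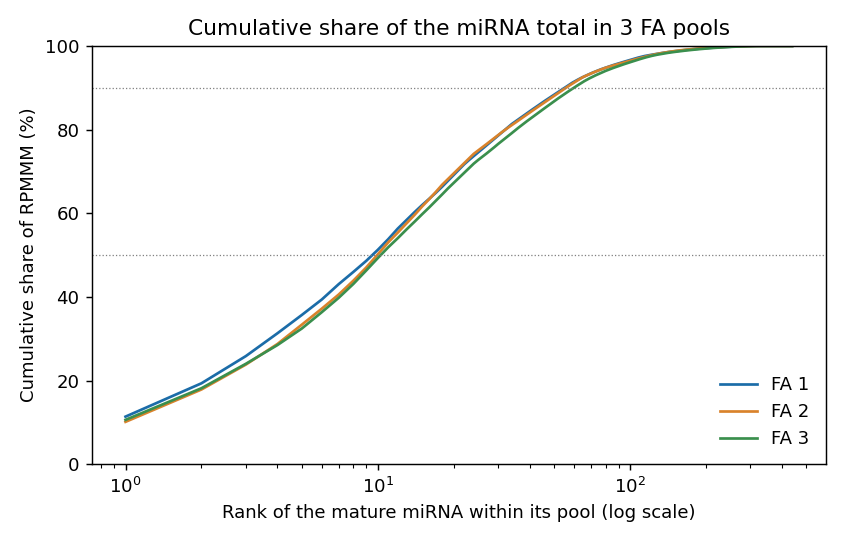
Cumulative share of the RPMMM (vertical axis, %) against the rank of the mature miRNA within its pool (horizontal axis, log scale), 1 line for each of the 3 FA pools, with dotted lines at 50 and 90%. The lines cross 50% at 10 or 11 miRNAs and 90% at 55 to 60.

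Seed families were formed from the 376 miRNAs with a RefSeq sequence only. The other 63, which held 16.3% of the total, entered none, among them miR-30b-5p, miR-30d-5p and miR-23b-3p, and the order of the seeds holds within that limit. By seed, the let-7 family led. let-7 miRNAs repress growth and RAS pathway mRNAs and rise as cells differentiate. The 9 members in the table held 22.5, 23.8 and 21.9% of the pools, 22.7% ± 0.996 (SD, n = 3), and all were above 0 in every pool. let-7f-5p made up 26.8% of the family, let-7c-5p 20.2%, let-7a-5p 15.7%, let-7g-5p 12.8% and let-7b-5p 11.7%. let-7e-5p (4173 RPMMM ± 43.4) and miR-98-5p (1503 ± 242) were its lowest members.

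Among miRNAs with a sequence, the next seeds were miR-21 alone (10.7%), miR-26a-5p with miR-26b-5p (9.49% ± 0.372), GUAAACA of the miR-30 family (6.55% ± 0.650) and AAUACUG of miR-200b-3p, miR-200c-3p and miR-429-3p (5.06% ± 0.304). They were followed by CCCUGAG of miR-125a-5p, miR-125b-5p and miR-351-5p (2.40% ± 0.520), AGCACCA of the miR-29 family (2.08% ± 0.298) and UCACAUU of miR-23a-3p (2.05% ± 0.0393). The miR-30 family by name, which adds miR-30b-5p and miR-30d-5p, held 13.7, 12.3 and 10.8% of the pools, 12.3% ± 1.45, more than miR-21-5p in each pool. All 5 of its members were above 0 in every pool, led by miR-30d-5p with 38.2% of the family.

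Families differed in how far 1 member dominated. miR-29a-3p held 97.4% of the miR-29 family, whose targets include collagen mRNAs, with 16915, 22035 and 21754 RPMMM against means of 346 for miR-29c-3p and 185 for miR-29b-3p. miR-10a-5p held 95.3% of the miR-10 pair and miR-103-3p 98.5% of its pair with miR-107-3p. miR-221-3p and miR-222-3p, which derive from neighbouring genes, shared their family almost evenly (52.5 and 47.5%).

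The remaining named families were smaller. The miR-23 family by name, with miR-23b-3p, held 2.80% ± 0.0456 of the pools, miR-27 1.74% ± 0.117, miR-99/100 1.62% ± 0.201, miR-25/92 1.16% ± 0.0712, miR-221 with miR-222 0.760% ± 0.0569 and miR-24 0.618% ± 0.0383. The miR-10 family held 0.517% ± 0.172, miR-103 with miR-107 0.493% ± 0.0685, miR-181 0.485% ± 0.0298, miR-15/16 0.403% ± 0.0785 and the miR-148a, miR-148b and miR-152 group 0.264% ± 0.0164. The miR-17 family held 0.136% ± 0.00811 and miR-19 0.00393% ± 0.00367. Members of the proliferation-linked miR-17-92 cluster were thus uneven: miR-92a-3p stood at 4551, 4918 and 5332 RPMMM, while miR-17-5p stood at 0, 40.1 and 71.0 and miR-19b-3p at 72.6, 45.3 and 0. All 19 named families together held 70.7% ± 1.81 of the total.

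The abundant miRNAs shared features that the sum did not use. Of the 376 mature miRNAs with a sequence, 135 (35.9%) begin with U, and these held 80.4% ± 0.460 of the canonical level of those 376. The 89 that begin with C (23.7%) held 5.64% ± 0.0709 and the 50 that begin with G (13.3%) held 1.09% ± 0.369. Canonical miRNAs of 22 bases, 213 in number and the most common length by count as well, held 76.5% ± 0.437 of the same level. These shares rest largely on the few miRNAs at the top, and no test was made. miR-30d-5p, miR-378-3p and miR-320-3p of the 20 highest are not in them.

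Hairpins that lie close together in the genome can be cut from a shared transcript. On mm9, 237 hairpins could be placed, and those within 10000 bases of another on the same strand formed 40 clusters that held 47.0% of the total. The order of clusters holds for placed hairpins only, which held 89.2% of the total. let-7f-1, a hairpin of the abundant let-7f, was in none of the clusters, so its reads count in no cluster below. The copies of let-7f together stood at a mean of 61173 RPMMM, of which let-7f-2 had 31925. The level of let-7f-1 could thus change the order of clusters, also at the top, if it were counted in one. Among these clusters the highest by level was miR-30b with miR-30d on chromosome 15 (chr15:68168977-68172851, minus strand), at 5.75% ± 0.811 of the pools. It was followed by let-7c-2 with let-7b (chr15:85537033-85537833, plus strand, 5.31% ± 0.359) and by miR-429, miR-200a and miR-200b (chr4:155428014-155429859, minus strand, 5.12% ± 0.218). After these came let-7d with let-7a-1 (chr13:48631381-48633641, minus strand, 3.93% ± 0.331). Levels differed within a cluster: in that of miR-429, miR-200b was at 33219 RPMMM and miR-429 at 4464. Reads of let-7c that fit both of its copies were divided between them, so the share of its cluster is less certain than that of the mature miRNA. The hairpin of miR-21 (chr11:86397569-86397660, minus strand) overlaps an exon of Vmp1, and that of miR-26b (chr1:74440884-74440968, plus strand) lies in an intron of Ctdsp1, which encodes a phosphatase.

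Marker miRNAs of the cell types that lavage could hold were then read. All 16 epithelial markers were in the table and 15 were above 0 in every pool, with miR-34b-5p at 57.1, 0 and 140 RPMMM. Together they held 8.31, 8.07 and 8.81% of the pools, 8.39% ± 0.380 (SD, n = 3), and miR-200b-3p, miR-200c-3p and miR-200a-3p were the highest. miR-182-5p of the miR-183/96/182 cluster was at 7567, 6207 and 5885 RPMMM, miR-183-5p at a mean of 1778 and miR-96-5p at 205. miR-375-3p stood at 3468 RPMMM ± 282, miR-203-3p at 1747 ± 347, miR-205-5p, a basal cell miRNA, at 1556 ± 243 and miR-31-5p at 1035 ± 120. miR-429-3p stood at 4464 ± 563, miR-141-3p at 716 ± 275, miR-34a-5p at 547 ± 225 and miR-449a-5p at 153 ± 32.5.

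The miR-34/449 miRNAs are needed for multiciliated cells. miR-34c-5p was at 2011, 2897 and 5221 RPMMM, highest in FA 3, and miR-34b-3p at 5414, 5307 and 6686.

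The 7 leukocyte markers held 0.402% ± 0.0410, and 6 were above 0 in every pool. miR-223-3p, a myeloid miRNA, was at 1062, 607 and 725 RPMMM. miR-342-3p was at 946 ± 195, miR-146a-5p at 916 ± 146, miR-142-5p at 695 ± 143, miR-155-5p at 488 ± 70.2 and miR-142-3p at 177 ± 46.5. miR-150-5p, a lymphocyte miRNA, was listed at 0 in all 3 pools.

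Markers of tissues outside the airway lumen were uneven between pools. The 4 vessel wall markers held 0.456, 0.461 and 1.14% of the pools, through miR-143-3p at 4155, 3486 and 10246 RPMMM. miR-145-5p stood at 293, 962 and 818 RPMMM, miR-126-3p at 81.7, 145 and 260 and miR-126-5p at 29.8, 18.1 and 54.2. Of the 5 names in the striated muscle list 3 were in the table, and their sum was 205, 1168 and 5982 RPMMM. miR-1a-3p stood at 140, 838 and 4638 RPMMM, miR-133a-3p at 64.8, 294 and 1287 and miR-206-3p at 0, 36.2 and 57.9.

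FA 3 was thus the highest in the muscle miRNAs and in miR-143-3p, miR-126-3p and miR-126-5p of the vessel wall list. miR-145-5p of that list was highest in FA 2. FA 1 was the lowest in muscle. The red cell list held miR-486-5p at 339, 475 and 738 RPMMM and miR-144-3p at 24.6, 0 and 0, and the table's miR-451, an erythroid miRNA read under another name than the list gave, stood at 455, 468 and 1049. miR-122-5p, the liver miRNA, was at 0, 91.8 and 155 RPMMM. Of the neuron list only miR-128-3p was in the table, at 871 ± 80.0, and it is expressed in many tissues. The part of these markers in other values of the pools was not tested.

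Across hairpins, 5p strands held 68.1% ± 2.13 of the total and 3p strands 30.9% ± 2.24, with 0.941% in entries that name no arm. With the copies of a hairpin summed and counted as 1, 251 hairpins had an arm in the name. Of these, 75 had both strands above 0 in all 3 pools, and they held 79.6% of the total. Another 60 (12.8% of the total) had a strand at 0 in some pools, 9 had the 5p strand at 0 in every pool, 9 had the 3p strand at 0 in every pool, and 20 had no reads. For 47 only the 5p strand and for 31 only the 3p strand was listed.

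The sequences of 4 hairpins show the kinds of balance found, with the 5p and then the 3p strand in capitals (RefSeq, GRCm38.p6). They were chosen with their values known, for mostly 5p, mostly 3p, shared and even reads:
miR-26b: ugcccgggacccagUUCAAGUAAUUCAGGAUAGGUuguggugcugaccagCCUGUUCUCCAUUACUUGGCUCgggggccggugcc
miR-27b: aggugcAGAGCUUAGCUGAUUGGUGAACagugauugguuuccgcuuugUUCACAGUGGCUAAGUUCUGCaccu
miR-30a: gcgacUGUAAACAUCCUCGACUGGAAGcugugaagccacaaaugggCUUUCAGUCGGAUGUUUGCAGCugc
miR-423: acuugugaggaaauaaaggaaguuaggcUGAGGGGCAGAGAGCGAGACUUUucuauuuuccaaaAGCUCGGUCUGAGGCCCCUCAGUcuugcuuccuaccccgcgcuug
The 5p strand of miR-26b stood at 19129, 16948 and 15850 RPMMM and its 3p strand at 198, 146 and 105. That of miR-27b stood at 85.6, 32.3 and 78.4 against 12828, 11044 and 12963 for the 3p strand. In miR-30a both strands were abundant, the 5p strand at a mean of 34592 and the 3p strand at 7707 RPMMM. In miR-423 they were nearly even, at means of 3353 and 2718.

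The balance of the 75 hairpins was tested as log2((5p + 1)/(3p + 1)) in RPMMM against 0 with limma, and called at an adjusted p below 0.05 and at least 2-fold. limma draws each variance towards that of the other tested hairpins at a similar level. The SEs and p-values below thus do not rest on the 3 pools of a hairpin alone. The test called 62 (82.7%), 35 to the 5p strand (46.7%) and 27 to the 3p strand (36.0%). The median fold between strands was 8.84, with 34 hairpins over 10-fold and 10 over 100-fold, and 68 had the same strand higher in every pool.

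The 6 tested hairpins furthest to the 5p strand were miR-21, let-7f, miR-146b, miR-30d, miR-26a and miR-30b. miR-21-3p was at 118, 98.3 and 211 RPMMM beside its abundant 5p strand, a log2 ratio of 9.62 ± 0.29 (SE, n = 3 pools; limma adjusted p = 8.73e-30). The log2 ratio was 8.95 ± 0.32 for let-7f and 7.44 ± 0.28 for miR-146b, a brake on NF-kB signalling. It was 7.34 ± 0.26 for miR-30d, 7.25 ± 0.27 for miR-26a and 6.99 ± 0.26 for miR-30b. The 3p level of let-7f sums let-7f-1-3p (0, 210 and 0 RPMMM) and let-7f-2-3p (40.6, 0 and 212). Neither was above 0 in every pool, so let-7f could be tested only as the sum of its copies.

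The 6 tested hairpins furthest to the 3p strand were miR-378, miR-27b, miR-143, miR-92a, miR-92b and miR-222. miR-378 had 40.2, 56.9 and 125 RPMMM in its 5p strand, a log2 ratio of -8.90 ± 0.26 (limma adjusted p = 6.56e-30). The ratio was -7.64 ± 0.27 for miR-27b, -7.39 ± 0.31 for miR-143, -5.70 ± 0.31 for miR-92a, -5.10 ± 0.32 for miR-92b and -4.45 ± 0.33 for miR-222. miR-21, let-7f, miR-26a and miR-378, with ratios far to either side, are all among the 10 most abundant miRNAs. Both strands had to be above 0 in every pool, so only abundant hairpins could reach ratios this far. A link to abundance was not tested.

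The 13 hairpins that were not called included 10 within 2-fold. The 5 closest to an even ratio were miR-29b at 0.06 ± 0.59, miR-106b at -0.13 ± 0.56, miR-34c at -0.24 ± 0.28, miR-151 at 0.31 ± 0.28 and miR-423 at 0.31 ± 0.28 on the log2 scale. In miR-34c the 5p strand held 39.4, 42.5 and 55.9% of the reads, with FA 3 on the other side of even. A missed call does not show that the strands were equal.

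For hairpins with a strand at 0 no ratio was taken, so they could not be among those furthest to a side. The 6 of highest level were let-7g (3p strand at 0, 34.9 and 65.4 RPMMM against a mean of 29138 for 5p), miR-29a (5p strand at 14.3, 0 and 0 against 20235 for 3p), miR-320 (5p strand at 0 in all pools against 15421), miR-200c (5p strand at 33.7, 0 and 0 against 14508), miR-652 (5p strand at 0, 41.4 and 0 against 13449) and miR-99a, for which only the 5p strand was listed (10881). The lowest values that the pools listed were 13.6, 13.6 and 18.9 RPMMM, so that a strand below these levels would be at 0.

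**Figure D3:**
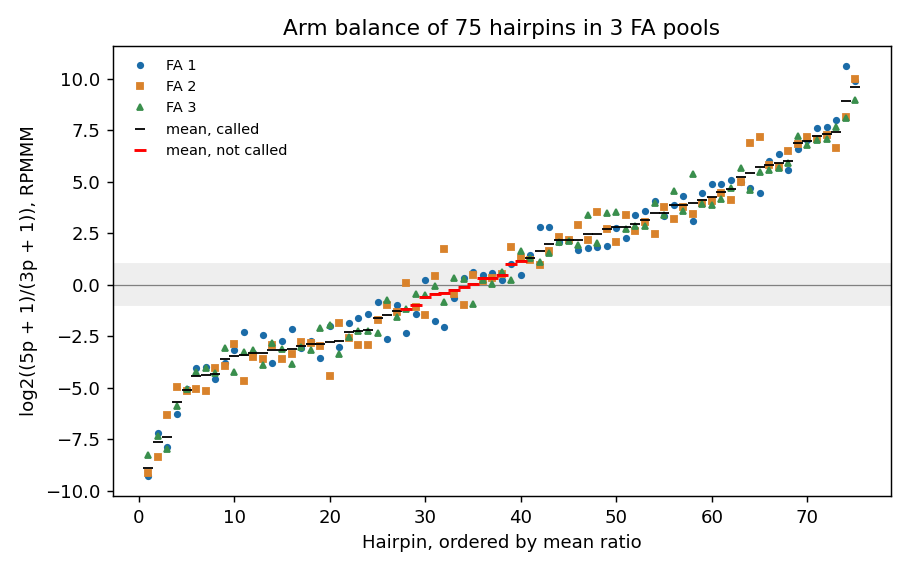
Log2 ratio of the 5p to the 3p strand (vertical axis, with 1 RPMMM added) of the 75 tested hairpins in order of their mean (horizontal axis), 1 symbol for each FA pool, with the mean as a dash that is red where the hairpin was not called; the grey band is 2-fold to either side. The ratios run from -8.90 for miR-378 to 9.62 for miR-21, and 13 hairpins around 0 were not called.

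isomiRs held 7.07, 6.82 and 7.25% of the pools, 7.05% ± 0.212 (SD, n = 3), although they made up 881 of 1308 entries. Shifts of +1 held 3.91% ± 0.197, +2 1.13% ± 0.0610 and -1 1.05% ± 0.0770, and all plus shifts together held 5.63% against 1.42% for all minus shifts. The table does not define the sign. Here + was read as a 5′ end further into the miRNA. The share was 10.3% ± 0.310 in 3p strands and 5.03% ± 0.0178 in 5p strands, and it was higher in the 3p strands in each pool. Without the 10 most abundant miRNAs it was 9.66% ± 0.322 of what was left.

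Most miRNAs were present mainly in their canonical form, that is, with an unshifted 5′ end. The median isomiR share was 5.50% among the 247 miRNAs above 50 RPMMM, 49 of them had no isomiR above 0, and 25 had more than 50% of their level in isomiRs. The lowest values listed in FA 1, FA 2 and FA 3 were 13.6, 13.6 and 18.9 RPMMM, or 10.5, 10.5 and 10.1 reads at the estimated depth. An isomiR entry below these levels would be at 0, so small isomiR shares could not be seen in miRNAs of low level. miR-29a-3p had the highest share of the top 20, 15.1% ± 1.09, and miR-320-3p had 12.3% ± 1.44. miR-21-5p had 4.36% ± 0.177.

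The sum of isomiRs was set against the canonical form in the 118 strands that had both above 0 in every pool. Strands with the canonical form at 0 in a pool were left out, also where nearly all of the level was in isomiRs. Among these were miR-5115 (isomiR share 99.1%, mean 1281 RPMMM), miR-222-5p (100%) and miR-5126 (97.5%). The 49 miRNAs above 50 RPMMM with no isomiR above 0 were left out as well. limma called 108 (91.5%), of which 102 (86.4%) leaned to the canonical form and 6 (5.08%) to isomiRs. The median log2 ratio was -3.71. The 5 strands above 1000 RPMMM furthest to the canonical form were let-7e-5p (-6.18 ± 0.26), miR-16-5p (-5.80 ± 0.31), miR-23a-5p (-5.46 ± 0.25), let-7a-5p (-5.40 ± 0.09) and let-7b-5p (-5.40 ± 0.09), where the value is the log2 ratio with its SE. The isomiR share was 1.42% ± 0.658 for let-7e-5p.

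The 6 called to isomiRs were miR-5109, miR-142-5p, miR-5105, miR-145-3p, miR-1943-5p and miR-345-3p. In miR-142-5p, a miRNA of blood cells, the canonical form was at 69.0, 27.8 and 146 RPMMM and the isomiRs at 791, 595 and 457. Its log2 ratio was 3.17 ± 0.49 (limma adjusted p = 0.000134), and a shift of -2 held 76.9% of its level. The log2 ratio was 2.76 ± 0.53 for miR-145-3p, where the shift of -2 also held 76.9%, 1.71 ± 0.31 for miR-1943-5p (+1, 69.9%) and 1.61 ± 0.30 for miR-345-3p (-1, 76.6%).

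miR-5109 and miR-5105 had another pattern. The log2 ratio was 3.59 ± 0.33 for miR-5109 (limma adjusted p = 2.62e-06) and 3.13 ± 0.32 for miR-5105. The reads of miR-5109 were spread over start positions from -1 to +8, of which +4 held 23.6% and the canonical start 8.04%. Those of miR-5105 were spread from -8 to +8 and no start held more than 15.1%.

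Some abundant strands had most of their level in 1 isomiR without passing the 2-fold threshold. The canonical form of miR-140-3p, a miRNA studied mainly in cartilage, was at 2974, 2524 and 2207 RPMMM and the +1 form at 4058, 3440 and 3931, higher in every pool. All isomiRs together gave a log2 ratio of 0.66 ± 0.18 (limma adjusted p = 0.00471). miR-101a-3p was at 572, 736 and 787 RPMMM in its canonical form and at 772, 993 and 878 with a shift of -1. miR-203-3p, of the epidermis and other stratified epithelia, was at 756, 577 and 794 and its +1 form at 996, 754 and 1201. With all isomiRs together, the limma adjusted p was 0.145 for miR-101a-3p and 0.0835 for miR-203-3p, so these did not pass the p threshold either. A shift of the 5′ end moves the seed, which is shown in capitals for the canonical form and for the most abundant isomiR, read from the RefSeq hairpin and ended where the canonical form ends, since the table gives no 3′ end:
miR-140-3p: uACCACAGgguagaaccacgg
miR-140-3p shifted by +1: aCCACAGGguagaaccacgg
miR-101a-3p: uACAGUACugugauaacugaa
miR-101a-3p shifted by -1: gUACAGUAcugugauaacugaa
miR-142-5p: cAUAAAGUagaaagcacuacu
miR-142-5p shifted by -2: cCCAUAAAguagaaagcacuacu
The seed of the shifted miR-101a-3p, UACAGUA, is that of canonical miR-101b-3p, and the seeds of the shifted miR-140-3p and miR-142-5p occur in none of the 376 mature sequences.

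**Figure D4:**
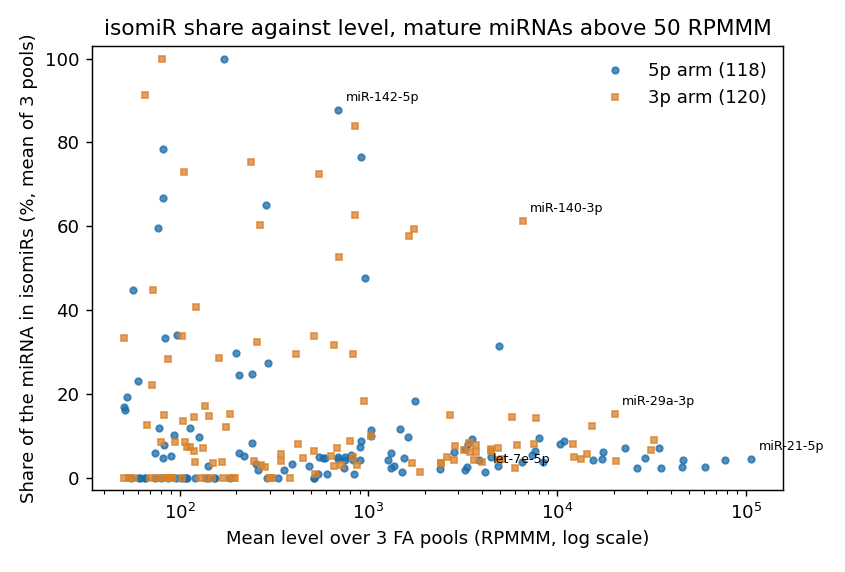
Share of each mature miRNA's level in isomiRs (vertical axis, %, mean of 3 FA pools) against its mean level (horizontal axis, RPMMM, log scale), for the 118 5p and 120 3p strands above 50 RPMMM. Most points lie near the median of 5.50%, while miR-140-3p, one of the abundant miRNAs, stands at 61.3%.

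The pools were compared across miRNAs, as a description, since miRNAs are not replicates. Over the 1084 entries above 0 in any pool, the Pearson correlation of log2(RPMMM + 1) was 0.679 to 0.704 and Spearman's rho 0.741 to 0.762 for the 3 pairs. Over the 247 mature miRNAs above 50 RPMMM these were 0.865 to 0.885 and 0.906 to 0.937. Of all entries, 529 were above 0 in 3 pools, 193 in 2, 362 in 1 and 224 in none.

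The spread fell with level. The median CV was 51.1% for the 91 miRNAs from 50 to 200 RPMMM, 23.7% for the 71 up to 1000, 13.2% for the 61 up to 10000 and 9.45% for the 24 above. The counting error at the depth estimated for these pools would be 12.5, 5.36, 2.13 and 0.829%. The CVs also hold the spread between sets of mice and between library preparations, which cannot be told apart here. Between the highest and the lowest pool 99 of the 247 miRNAs differed more than 2-fold, none of them among the 24 above 10000 RPMMM.

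The miRNAs above 1000 RPMMM that did so were miR-143-3p, miR-34c-5p, miR-351-5p, miR-2137, miR-1a-3p and miR-5115. miR-2137 was at 6407, 784 and 793 RPMMM, high in FA 1. miR-351-5p, of the miR-125 family, was at 1800, 4070 and 2629, and miR-5115 at 848, 916 and 2078. Of the 99, the pool furthest from the others was FA 1 for 9 on the high side and 20 on the low side, FA 2 for 15 and 22, and FA 3 for 22 and 11, so all 3 pools took part.

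Among single entries above 50 RPMMM, the 5 with the largest CV were let-7f-1-3p (0, 210 and 0 RPMMM), the +2 form of miR-324-3p (179, 0 and 0), let-7f-2-3p (40.6, 0 and 212) and the +3 and +2 forms of miR-2137 (447, 34.9 and 48.1, and 452, 23.8 and 68.2). The 5 with the smallest were let-7e-5p (4112, 4099 and 4130, a CV of 0.388%), miR-93-5p (874, 854 and 880), miR-96-5p (189, 193 and 196), miR-24-2-5p (714, 738 and 717) and let-7d-3p (3162, 3212 and 3089). The first of these groups holds passenger strands and isomiRs, and let-7e-5p was the most abundant of the second.

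Some entries share their reads. miR-199a-3p (379, 652 and 1465 RPMMM) and miR-199b-3p (189, 326 and 733) moved together in a fixed ratio, and miR-3107-5p (338, 475 and 738) followed miR-486-5p. These pairs cannot be told apart in the table and are uncertain as separate miRNAs.

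**Figure D5:**
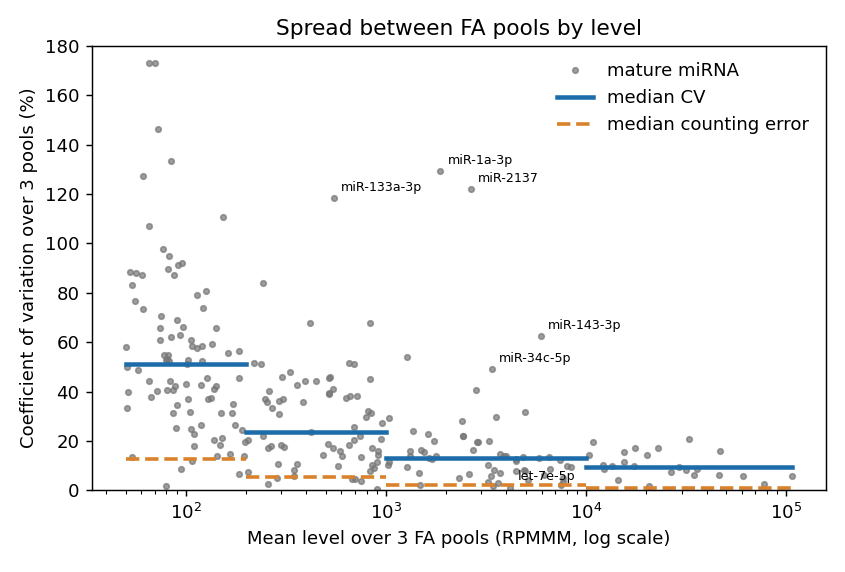
CV over the 3 FA pools (vertical axis, %) against mean level (horizontal axis, RPMMM, log scale) for the 247 mature miRNAs above 50 RPMMM (points), with the median CV (solid lines) and the median counting error (dashed lines) of each level class. The median falls from 51.1 to 9.45%, and miR-1a-3p, miR-2137, miR-133a-3p, miR-143-3p and miR-34c-5p lie far above their class.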

How the data were processed

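The authors trimmed small RNA reads, aligned them to mm9 and counted miRNAs and isomiRs with miRquant. The deposited values are RPMMM, an RPM unit that the authors scaled to the miRNA reads of each pool. Only the FA columns were used. Depth is not stated in the table. The steps between low values gave estimates of 771400, 773358 and 535630 miRNA reads. Of values under 300 RPMMM, 75.5 to 80.7% were whole reads within 0.03, so no count test was run. Entries of hairpins with copies were whole less often (39.1 to 49.6%) than single ones (84.7 to 88.9%), hence copies were summed.

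Entries at 0 stay in all sums. Families, markers and seeds came from fixed lists and RefSeq, and 291 of 299 hairpins matched a RefSeq gene. Strand and isomiR balances were tested with limma 3.58.1 in R 4.3.3 (one-sample moderated test over the 3 pools, pseudocount 1 RPMMM, mean above 50 RPMMM, variance trend, Benjamini-Hochberg over all tested). The script was tested on simulated data. Shares, correlations and CVs were described without a test. P-values and SEs rest on the spread between pools of 4 mice, shared across the hairpins or strands tested.

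The text names the 20 highest miRNAs, the 8 largest seed families and all named families, called strands furthest to each side (6 each) and the 5 closest to 0, isomiR calls (up to 8) and the 5 most canonical, the 5 most and least variable entries, all markers, and the 6 highest hairpins with a missing strand. Other miRNAs named were chosen with their values known. The members and lists were chosen with earlier results of these data known. The alternatives were another pseudocount, other level filters, no variance trend, copies counted once, canonical entries only, shifts of 1 base only, other totals and leaving out each pool.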

Additional observations from a re-analysis of the deposited data

How the results depend on the processing

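No call count for strand balance moved by more than 1.5 times under any alternative. Leaving out each pool gave 63 to 70 called hairpins, with other numbers tested. With isomiRs shifted by 1 base only, 2 strands were called to isomiRs in place of 6: miR-5109 and miR-5105 were no longer called, the ratio of miR-145-3p turned to -1.42, and miR-142-5p, like let-7e-5p, could not be tested, since such isomiRs were at 0 in a pool. With canonical entries only, miR-222 could not be tested. Among the hairpins closest to an even ratio, leaving out each pool moved the log2 ratio of miR-29b between -0.22 and 0.55 (below 0 without FA 1 and without FA 2) and that of miR-106b between -0.35 and 0.30 (above 0 without FA 2). Where they could be tested, the other ratios of named hairpins and strands kept their direction and their call.

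Counting each copy once lowered the share of the 10 highest miRNAs to 46.5% and that of the let-7 family to 18.1%, and raised the isomiR share to 7.55%; this setting divides the level of miRNAs with several copies. With canonical entries only, the 10 highest held 51.7%. The isomiR share was 6.74% without hairpins of no RefSeq gene and 6.30% over entries above 50 RPMMM. The mean Pearson correlation of the pools was 0.690, and it was 0.869 with a pseudocount of 10, 0.858 over entries above 50 RPMMM and 0.802 over mature miRNAs. Leaving out each pool moved the share of the 10 highest between 49.7 and 50.7%, let-7 between 22.2 and 23.2% and isomiRs between 6.95 and 7.16%.

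With 3 pools, values near the lowest listed level cannot separate absence from low abundance.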
